A study of Mus musculus with 2 samples.

Results

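The immediate early response genes described here are Fos, Fosb, Jun, Junb, Jund, Egr1, Ier2, Zfp36, Dusp1 and Atf3. These 10 genes were taken from 43346 Ensembl gene rows by matching each row's identifier to its symbol, and all 10 were found in both gene tables. The set was chosen by measured values, its levels and its ratios between the libraries. Levels and ratios are therefore given as a description with no test, and they support no statement about the set.

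Immediate early genes are transcribed within minutes of a stimulus, before any new protein is needed, because the factors that switch them on are already present and are activated by kinases. Serum response factor (SRF) with its ternary complex partners acts through the CArG box, and CREB and ATF factors act through the cyclic AMP response element (CRE). Most of the products are transcription factors or feedback inhibitors, and their RNAs are short-lived. FOS and JUN proteins pair to form AP-1, a factor that in blood progenitors takes part in growth, stress responses and myeloid differentiation. Handling of cells, such as tissue dissociation and sorting, is also known to raise these genes.

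Total RNA was sequenced in 2 libraries, replicates 1 and 2, of primary cells labelled megakaryocyte progenitor (CFU-Meg, the colony-forming progenitor of platelet-producing cells). Both come from adult male C57BL/6J mice of 5 to 6 weeks with no treatment or genotype named, from 1 ng of RNA each, as separate biosamples under a shared donor identifier. With 1 group and nothing to contrast it with, genes were compared within a library and between the replicates, and whether the spread between the replicates is a spread between animals cannot be told. The libraries held 82746658 and 75652762 expected counts, of which the 10 genes took 0.0298% in replicate 1 and 0.0492% in replicate 2.

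All 10 genes were detected in both libraries, and their levels spanned a wide range. TPM is a transcript's relative level corrected for its length, so it can be compared between genes. The median over the 10 genes was 15.7 TPM in replicate 1 and 19.97 TPM in replicate 2, and the genes summed to 193.4 and 316.6 TPM. Of the 10, 9 reached 1 TPM in both libraries, Atf3 being the exception, and 6 reached 10 TPM in both. For comparison, the 12352 genes that reached 1 TPM in at least 1 library had a median of 8.885 TPM.

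**Figure D1:**
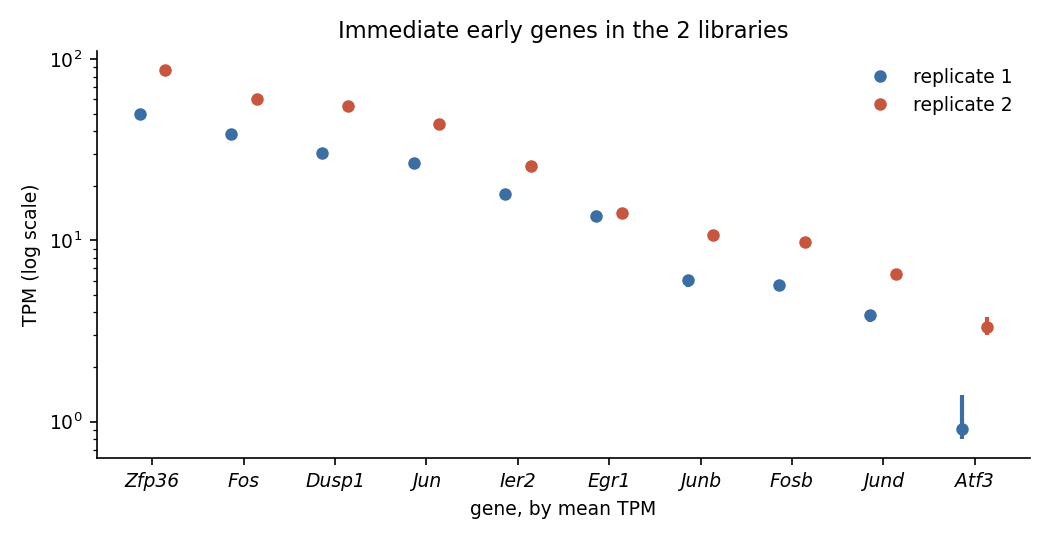
TPM of the 10 immediate early genes on a log axis, ordered by mean. Each point is 1 library and each vertical line is the deposited credibility interval, which is often smaller than the point. Zfp36 is at 49.6 and 87.5 TPM at one end and Atf3 at 0.91 and 3.33 TPM at the other, and replicate 2 lies above replicate 1 for each gene.

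The order of the levels was the same in both libraries: Zfp36, Fos, Dusp1, Jun, Ier2, Egr1, Junb, Fosb, Jund and Atf3. Neighbours in this order were called separate where both libraries of the upper gene lay above both of the lower. By that rule 4 of the 9 neighbouring pairs were separate, namely Jun above Ier2, Ier2 above Egr1, Egr1 above Junb, and Jund above Atf3. The other 5 pairs overlapped: Zfp36 and Fos, Fos and Dusp1, Dusp1 and Jun, Junb and Fosb, and Fosb and Jund. By that rule their differences do not exceed the spread between the libraries. The rule does not compare genes within a library, where the upper gene of each pair was higher in both. In replicates 1 and 2 the ratios were, in that order, 1.28 and 1.46, 1.28 and 1.09, 1.14 and 1.25, 1.06 and 1.10, and 1.47 and 1.49.

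Fos encodes the FOS protein, which cannot bind DNA without a JUN partner. Fos (ENSMUSG00000021250.9, chromosome 12, 85473890 to 85477273 on GRCm38, plus strand) stood at 38.8 TPM in replicate 1 and 59.9 TPM in replicate 2, or 49.4 ± 14.9 TPM (SD, n = 2), from 4559 and 6638 expected counts. This put it above 88.5% of the 12352 genes. Fosb encodes a close relative with a similar leucine zipper (ENSMUSG00000003545.2, chromosome 7, 19302696 to 19310051, minus strand). It had 5.70 and 9.74 TPM, a mean of 7.72 ± 2.86 TPM, above 46.0% of the genes. Within a library Fos was 6.81 times as high as Fosb in replicate 1 and 6.15 times as high in replicate 2, a larger ratio than that of either gene between the libraries.

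The sequences upstream of both genes are shown because they hold short letters of known promoter elements, 200 bases before the RefSeq start of Fos and 194 for Fosb, where the last bases before the start are left out. They run 5′ to 3′ on the strand of the gene and come from RefSeq on GRCm38.p6 (Fos chr12:85473690-85473889, Fosb chr7:19310052-19310245). Capitals mark the CRE core TGACG, the TATA letters TATAAA in Fos, and in Fosb the letters GCGNGGGCG that EGR factors recognise.
Fos: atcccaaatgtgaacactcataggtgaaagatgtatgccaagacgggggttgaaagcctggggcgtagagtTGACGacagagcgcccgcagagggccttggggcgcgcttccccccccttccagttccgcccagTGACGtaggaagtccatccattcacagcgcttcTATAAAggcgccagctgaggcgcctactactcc
Fosb: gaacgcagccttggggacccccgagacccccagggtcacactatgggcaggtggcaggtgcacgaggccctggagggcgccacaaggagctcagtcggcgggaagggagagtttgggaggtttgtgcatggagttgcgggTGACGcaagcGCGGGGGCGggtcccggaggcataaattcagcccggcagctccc
Counting back from the start, the CRE cores of Fos begin at -129 and -66 and its TATA letters at -33. The CRE core of Fosb begins at -60, and its EGR letters span -50 to -42.

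Jun encodes the main partner of FOS and can also pair with itself. Jun (ENSMUSG00000052684.4, chromosome 4, 95049034 to 95052222, minus strand) stood at 26.6 TPM in replicate 1 and 44.0 TPM in replicate 2, a mean of 35.3 ± 12.3 TPM. Its expected counts, 5044.95 and 7739.97, are fractional, as are those of Jund, so some of their reads also fit other features. The other 8 genes had whole counts within a tolerance of 0.005. Junos, an antisense RNA that overlaps Jun, stood at 1.80 and 2.11 TPM, and whether strand was used in the counting is not stated.

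Junb and Jund encode the other JUN proteins, of which JUNB is a weaker activator than JUN in many settings and JUND is the one that resting cells typically hold. Junb (ENSMUSG00000052837.5, chromosome 8, 84974484 to 84978718, minus strand) had 6.04 and 10.7 TPM, a mean of 8.36 ± 3.28 TPM. Jund (ENSMUSG00000071076.5, chromosome 8, 70698949 to 70700616, plus strand) had 3.89 and 6.55 TPM, a mean of 5.22 ± 1.88 TPM. The level of Jund depends on its gene model. The deposited length of 2878 bases equals the RefSeq span, whereas the annotation used here for positions (GENCODE M21) gives 1668 bases. Scaled to the shorter length with its counts kept, Jund would stand at 6.97 and 11.7 TPM, above Junb in both libraries. Reads outside the shorter model were not taken out, so its place beside Junb under that model is not known. An antisense gene over Jund, Gm11175, stood at 3.4 and 7.16 TPM and was also higher in replicate 2, and its reads and those of Jund may not have been told apart. Jun was 4.41 and 4.12 times as high as Junb in replicates 1 and 2, and 6.84 and 6.71 times as high as Jund.

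The 200 bases upstream of Jun and Junb are shown for comparison with Fos, in the same way (Jun chr4:95052223-95052422, Junb chr8:84978749-84978948, RefSeq on GRCm38.p6, strand of the gene). Capitals mark TGACATCA, a variant of the AP-1 site through which JUN is known to act on its own promoter, in Jun, and the CRE core TGACG in Junb.
Jun: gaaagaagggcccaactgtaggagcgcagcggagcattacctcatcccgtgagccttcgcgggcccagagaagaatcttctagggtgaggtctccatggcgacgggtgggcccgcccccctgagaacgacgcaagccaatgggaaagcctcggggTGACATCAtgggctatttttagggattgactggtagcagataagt
Junb: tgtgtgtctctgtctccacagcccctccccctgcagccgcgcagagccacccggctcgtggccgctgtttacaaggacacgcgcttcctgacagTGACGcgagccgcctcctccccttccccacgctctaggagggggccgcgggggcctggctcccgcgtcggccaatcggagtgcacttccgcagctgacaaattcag
The Jun variant spans -45 to -38, and the CRE core of Junb begins at -106. The window of Jund holds none of the letters searched. Its RefSeq start lies upstream of the GENCODE M21 start, and its window has 48% G and C, against 58% to 68% in the other windows searched.

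Among the FOS and JUN families, Fos and Jun made up most of the RNA in both libraries. Fosl1 and Fosl2, which complete the FOS family, were added to the 5 members for this sum, at 85.5 TPM in replicate 1 and 136.6 TPM in replicate 2. Fos took 45.4% and 43.9% of it and Jun 31.1% and 32.2%. Junb took 7.07% and 7.82%, Fosb 6.67% and 7.13%, and Jund 4.55% and 4.80%. Fosl2 took 4.93% and 3.84%, and Fosl1, at 0.257% and 0.366%, was the lowest. The share of Jund rests on its deposited length. At the GENCODE M21 length with its counts kept, 6.97 and 11.7 TPM, its share and that of the JUN family would be larger. The FOS family held 56.2% ± 1.45 and the JUN family 43.8% ± 1.45 (SD, n = 2), so the makeup of the families differed little between the libraries while the sum was higher in replicate 2.

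Zfp36 and Dusp1 encode feedback inhibitors and were among the 3 highest of the set. Zfp36 encodes tristetraprolin, which binds AU-rich elements in the 3′ untranslated regions of short-lived RNAs and speeds their decay. Zfp36 (ENSMUSG00000044786.5, chromosome 7, 28376784 to 28380253, minus strand) stood at 49.6 TPM in replicate 1 and 87.5 TPM in replicate 2, a mean of 68.6 ± 26.8 TPM and above 92.1% of the 12352 genes. Its level also depends on the gene model, since the deposited transcript has 1792 bases and that of GENCODE M21 has 2790. Scaled to the longer length with its counts kept, Zfp36 would stand at 30.9 and 54.6 TPM, below Fos in both libraries. Reads in the added bases were not counted, so its place beside Fos under that model is not known. An antisense gene, Gm44710, is annotated over Zfp36 and was not analysed here, and reads of the pair may not have been told apart.

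Dusp1 encodes a phosphatase that switches off MAP kinases in the nucleus. Dusp1 (ENSMUSG00000024190.6, chromosome 17, 26505590 to 26562128, minus strand) had 30.4 and 54.9 TPM, a mean of 42.6 ± 17.4 TPM, above 86.5% of the genes. That span is the one of GENCODE M21, whereas the transcripts with deposited values lie within 26505590 to 26508519. Relative to Fos, Dusp1 stood at 0.782 in replicate 1 and 0.916 in replicate 2, and Zfp36 at 1.28 and 1.46.

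Upstream of Dusp1, the 153 bases that lie before its annotated untranslated region (chr17:26508520-26508672, RefSeq on GRCm38.p6, strand of the gene) are shown because they hold the full CRE, TGACGTCA, which begins at -143. A further CRE core begins at -191. For Zfp36, 26 bases are shown around the CArG box at -58 to -49, the element bound by SRF. The RefSeq start of Zfp36 lies inside the GENCODE M21 gene, and these bases overlap an untranslated region annotated there. Capitals mark these elements.
Dusp1: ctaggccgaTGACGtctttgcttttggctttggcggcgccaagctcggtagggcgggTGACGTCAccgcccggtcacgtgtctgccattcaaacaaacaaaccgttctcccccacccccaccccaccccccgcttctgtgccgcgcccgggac
Zfp36: aggccgccCCATAAAAGGagaaagct
The Zfp36 window also holds the EGR letters, at -105 to -97.

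The AU-rich element that tristetraprolin recognises, searched as TTATTTATT on the coding strand of the 3′ untranslated regions of GENCODE M21, was found in the transcripts of 3 of the 10 genes: Fos, Zfp36 and Dusp1. It occurs once in Fos and in Zfp36 and at 2 places in Dusp1. Each is shown with its flanks, in the letters of DNA, with the element in capitals and, for Dusp1, the first of its sites.
Fos: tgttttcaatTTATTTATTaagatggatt
Zfp36: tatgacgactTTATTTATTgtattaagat
Dusp1: gagctggtccTTATTTATTtaacaccccc
Of 9564 coding transcripts of 1 TPM or more, 6.93% held these letters, and of 4480 with a 3′ untranslated region as long as those of the set (488 to 2148 bases), 6.09% did. The shorter letters ATTTA, which many unstable RNAs repeat, were counted per kilobase. The set had a median of 2.88, against 1.28 over the 9564 transcripts and 1.5 over those of like length, with a range from 0 in Ier2 to 5.77 in Dusp1. A match is a description of the letters and does not show that a protein binds there.

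Over the promoters, the letters searched on both strands were the CRE TGACGTCA, its core TGACG (which every full CRE also holds), the AP-1 site TGANTCA, the variant TGACATCA, the EGR letters GCGNGGGCG and the CArG box. TATAAA was searched on the strand of the gene alone. Windows were searched for 8 of the 10 genes, all but Ier2 and Egr1. The CRE core was in 5 of these 8 windows (Fos, Fosb, Junb, Dusp1 and Atf3) and in 15.6% of 32817 windows of the same length. Each of the other elements was in at most 2 of the 8. The full CRE was in Dusp1 (1.47% of all windows), TGACATCA in Jun (2.66%), TATAAA in Fos (6.28%), the EGR letters in Fosb and Zfp36 (4.28%), and the CArG box in Zfp36 (1.19%). The AP-1 site was in none of the 8 and in 5.48% of all windows. Bases further upstream than these windows were not searched. A window with no match, such as that of Fos for the CArG box, therefore does not show that the gene lacks the element. The window of Atf3 lies at the start of Atf3-201 and not at that of Atf3-203, the higher of its forms. The CRE core of Atf3, at -7 to -3, lies inside the annotated Atf3-201 transcript and not upstream of it. No binding was measured in these samples.

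**Figure D2:**
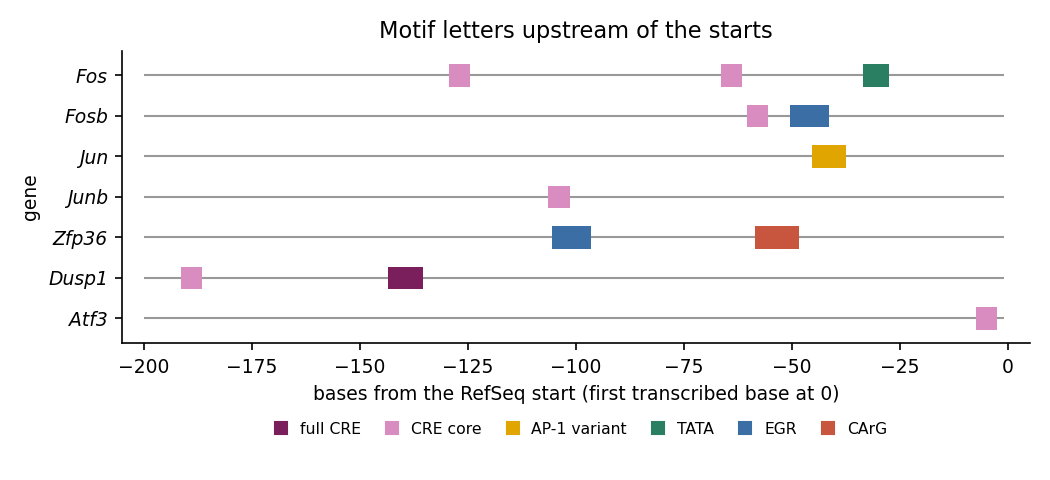
Places of the searched letters in the 200 bases before the RefSeq start, with 1 line per gene and the distance from the start in bases on the x axis. Coloured boxes are the matches, with the CRE core in 5 genes and the full CRE in Dusp1 at -143. Jund, which had no match, is not drawn.

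Ier2 and Atf3 complete the set beside Egr1. Ier2 encodes a small nuclear protein of the immediate early response. Ier2 (ENSMUSG00000053560.4, chromosome 8, 84661331 to 84662852, minus strand) is a single-exon gene and had 17.9 TPM in replicate 1 and 25.7 TPM in replicate 2, a mean of 21.8 ± 5.49 TPM. Atf3 encodes a stress-induced factor of the ATF family that represses many of its targets. Atf3 (ENSMUSG00000026628.9, chromosome 1, 191170296 to 191218039, minus strand) had 0.91 and 3.33 TPM, a mean of 2.12 ± 1.71 TPM, from 100 and 343 expected counts. It was the lowest of the set in both libraries, above 17.6% of the 12352 genes.

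Egr1 encodes a zinc finger factor that SRF and its partners switch on. Egr1 (ENSMUSG00000038418.7, chromosome 18, 34859823 to 34864984, plus strand) had 13.5 TPM in replicate 1 and 14.2 TPM in replicate 2, a mean of 13.9 ± 0.488 TPM, from 2467 and 2398 expected counts. The deposited credibility intervals of its TPM, 12.8 to 13.9 and 13.4 to 14.6, overlapped. They did not overlap between the libraries for the other 9 genes.

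The ratio between the libraries was computed from the expected counts after TMM scaling, which sets the libraries to a common level over all nuclear genes. All 10 genes had a higher value in replicate 2, and 8 of them by 1.5-fold or more. Of 14289 genes past the filter on low counts, 6.99% were higher in replicate 2 by that fold, and of the 11465 with a mean of 1 TPM or more, 4.26%. Since the set was chosen with this ratio known, nothing is read from the difference between these shares. The 8 genes were Fos, Fosb, Jun, Junb, Jund, Zfp36, Dusp1 and Atf3. Just inside the 1.5-fold line lay Fos and just outside it lay Ier2. In RNA from many cells, more cells that express a gene and more RNA per cell cannot be told apart.

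Atf3 had the largest ratio of the set, 3.75-fold (95% exact binomial interval 3.04 to 4.80, for counting error only). It was the single member past 2-fold. For Dusp1 the ratio was 1.91-fold (1.83 to 2.00), and for Zfp36 and Junb it was 1.82-fold (1.76 to 1.88 and 1.65 to 2.01). Fosb, Jund and Jun lay close to these. Fosb was 1.76-fold higher (1.64 to 1.89), Jund 1.73-fold (1.57 to 1.91) and Jun 1.70-fold (1.64 to 1.76). Fos was 1.61-fold higher (1.56 to 1.68). The lowest ratios were those of Ier2, 1.48-fold (1.38 to 1.58), and Egr1, 1.08-fold (1.02 to 1.14). The interval of Egr1 lay below those of the other 9 genes, and that of Atf3 above them. The sources used here do not state whether reads that PCR copied from a shared molecule were merged. If they were counted separately, these intervals are too narrow.

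**Figure D3:**
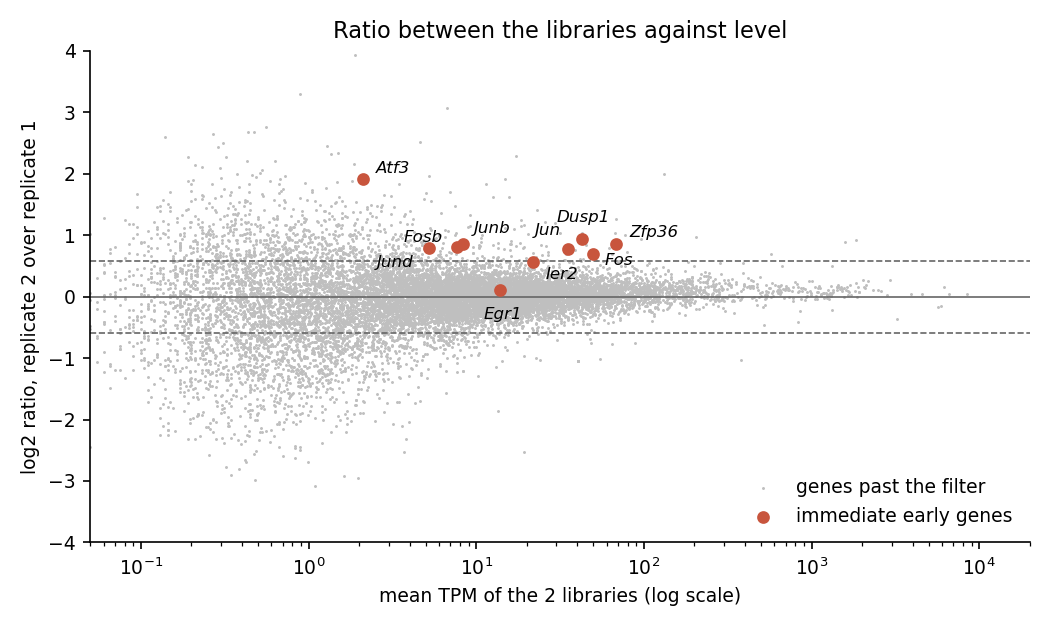
Log2 ratio of replicate 2 over replicate 1 against mean TPM on a log axis, with 14289 genes in grey, the 10 immediate early genes in red and dashed lines at 1.5-fold. The spread of the grey points narrows as the level rises, Egr1 lies near 0 at 0.11, and 8 of the red points lie above the upper dashed line, up to 1.91 for Atf3.

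On the log2 scale the median ratio of the set was 0.80, while that of all genes past the filter was 0. The median absolute log2 ratio was 0.17 over genes of 1 TPM or more and 0.13 over genes of 10 to 100 TPM, the range that holds most of the set. In that range 1.57% of genes were higher in replicate 2 by 1.5-fold or more. Proportions between genes of the set were compared within each library for a few pairs. Fos over Jun was 1.46 in replicate 1 and 1.36 in replicate 2, whereas Fos over Egr1 was 2.87 and 4.21. Likewise Zfp36 over Egr1 was 3.66 and 6.15, and Egr1 over Atf3 was 14.9 and 4.27.

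Transcript values split the level of a gene among its annotated forms, and 4 of the 10 genes had several in the deposited tables. In Dusp1 the protein-coding Dusp1-202 stood at 24.0 TPM in replicate 1 and 47.2 TPM in replicate 2. Its forms with a retained intron, Dusp1-203 and Dusp1-204, had 2.36 and 4.02 TPM in the first library against 2.93 and 4.78 TPM in the other, with deposited intervals that overlapped between the libraries. Together they made up 21.0% of the gene's TPM in replicate 1 and 14.04% in replicate 2. The TPM ratio between the libraries was 1.97 for the coding form and 1.21 for the forms with a retained intron.

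Fos showed the same arrangement. The coding Fos-201 stood at 36.5 and 57.6 TPM, whereas Fos-203, annotated as a processed transcript, stood at 2.34 and 2.31 TPM. The coding share was 94.0% in replicate 1 and 96.1% in replicate 2. In both genes the ratio between the libraries was larger for the coding form than for the others. How reads were divided between overlapping forms is an estimate of the authors' quantifier.

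**Figure D4:**
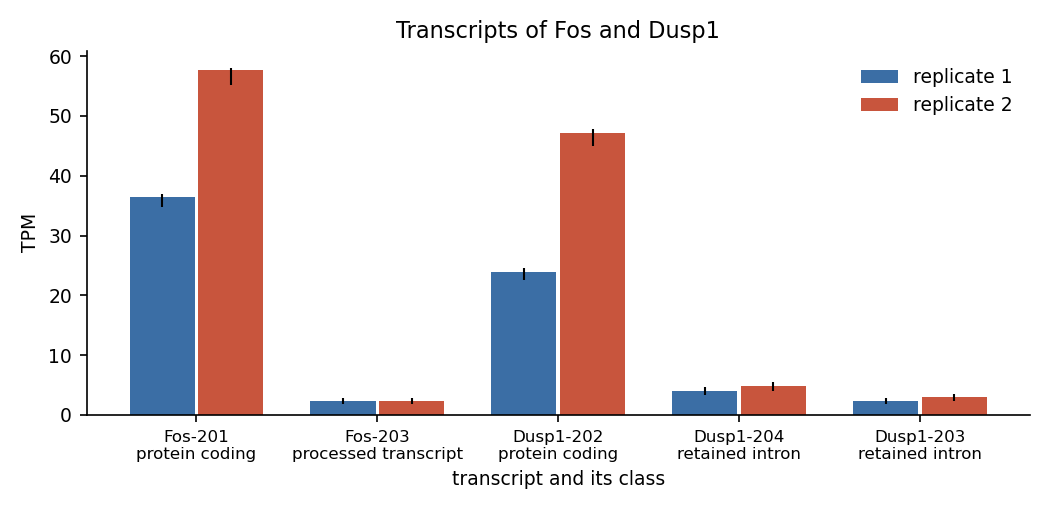
TPM of the transcripts of Fos and Dusp1 above 0 in replicates 1 and 2, with the deposited credibility interval as a vertical line, which belongs to the posterior mean and can lie below the top of a bar. The coding forms differ between the libraries (36.5 and 57.6 TPM for Fos-201, 24.0 and 47.2 TPM for Dusp1-202), and the intervals of the other forms overlap.

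For Egr1, the coding Egr1-202 held 97.7% and 98.4% of the TPM, and the longer Egr1-201 stood at 0.31 and 0.23 TPM. For Atf3, Atf3-203, which starts upstream at the far end of the gene, stood at 0.91 and 2.63 TPM. Atf3-201, which starts near the RefSeq start, was listed at 0 in replicate 1 and stood at 0.70 TPM in replicate 2, with overlapping deposited intervals (5.4e-06 to 0.474 and 0.282 to 1.43 TPM). Both forms encode protein. A further form, Atf3-202, is annotated as a processed transcript and was listed at 0 in both libraries. The upper bounds of its deposited intervals were 0.504 and 0.264 TPM. By the listed TPM the coding share of Atf3 was therefore 100% in both libraries. By posterior mean TPM this share was 80.6% and 97.3%, in the order of the replicates, so it depends on the estimate used. The other 6 genes have 1 transcript each in the tables.

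Other genes of the same response were taken from lists that were likewise chosen with earlier results known. Of 35 further immediate early genes, 30 passed the filter, with a median log2 ratio of 0.65. Of these 30, 16 were higher in replicate 2 by 1.5-fold or more and none was lower by as much. Over all genes past the filter, 6.99% were higher and 10.9% lower by that fold. Since the list was chosen with results known, nothing is read from this difference. Nfkbia, the inhibitor of NF-kappaB, had 15.7 TPM in replicate 1 and 35.5 TPM in replicate 2, a log2 ratio of 1.22. The zinc finger factor gene Klf6 had 12.1 and 26.4 TPM (1.17), and Ier3, a survival gene, had 11.7 and 17.3 TPM (0.61). The 3 highest of this list lay under 1.5-fold. Myc had 155.2 and 135.4 TPM (-0.11), the survival gene Mcl1 61.9 and 77.9 TPM (0.37), and the GTPase gene Rhob 46.4 and 67.2 TPM (0.58). For Egr4, Ccn1 and Ccn2 no read was assigned in either library (0 counts), a result compatible with up to 0.0324 TPM.

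The relatives of the set were closer to level. The shares of all genes past the filter that were higher and lower by 1.5-fold or more were 6.99% and 10.9%. Of 17 other AP-1 and ATF family genes, 5 were higher by that fold and none was lower by as much, with a median log2 ratio of 0.28. The 5 were Fosl1, Jdp2, Batf3, Maff and Atf5, named after their values were seen, and each had a mean under 10 TPM. The highest of these genes were Atf4, the factor of the integrated stress response, at 88.9 and 126.1 TPM (0.55), Atf7 at 67.1 and 61.7 TPM (-0.06) and Atf2 at 51.5 and 46.5 TPM (0.03). Of 10 relatives of Zfp36 and Dusp1, 8 passed the filter, with a median of -0.00081. Zfp36l2, which encodes another AU-rich element binding protein, had 117.8 and 111.8 TPM (-0.03). Dusp2 had 31.5 TPM in both libraries (0.20) and Dusp7 17.1 and 13.1 TPM (-0.10). Dusp16, named after its value was seen, was the single one past 1.5-fold and was lower in replicate 2, at 0.80 and 0.36 TPM.

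The kinases and promoter factors upstream of these genes had a median log2 ratio of 0.02, and none of the 20 was past 1.5-fold in either direction. Among all genes past the filter, 6.99% were higher and 10.9% lower by that fold. Mapkapk2, a kinase downstream of p38, had 80.2 and 89.8 TPM, and Mapk14, which encodes p38, had 45.6 and 46.1 TPM. Srf, named for its role at the CArG box, had 7.31 and 8.96 TPM. These are RNA levels, and the activity of the kinases was not measured. Of 12 heat-inducible chaperone genes, which respond to heat and other protein stress, 11 passed the filter, 1 was higher by 1.5-fold or more and none was lower by as much, with a median of 0.12. That gene was Hspa1a, named after its value was seen, at 3.46 and 6.03 TPM. The 3 highest were Hspa8 at 1343 and 1539 TPM, Hsp90aa1 at 548.5 and 550.9 TPM and Hsp90ab1 at 545.5 and 514.5 TPM.

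**Figure D5:**
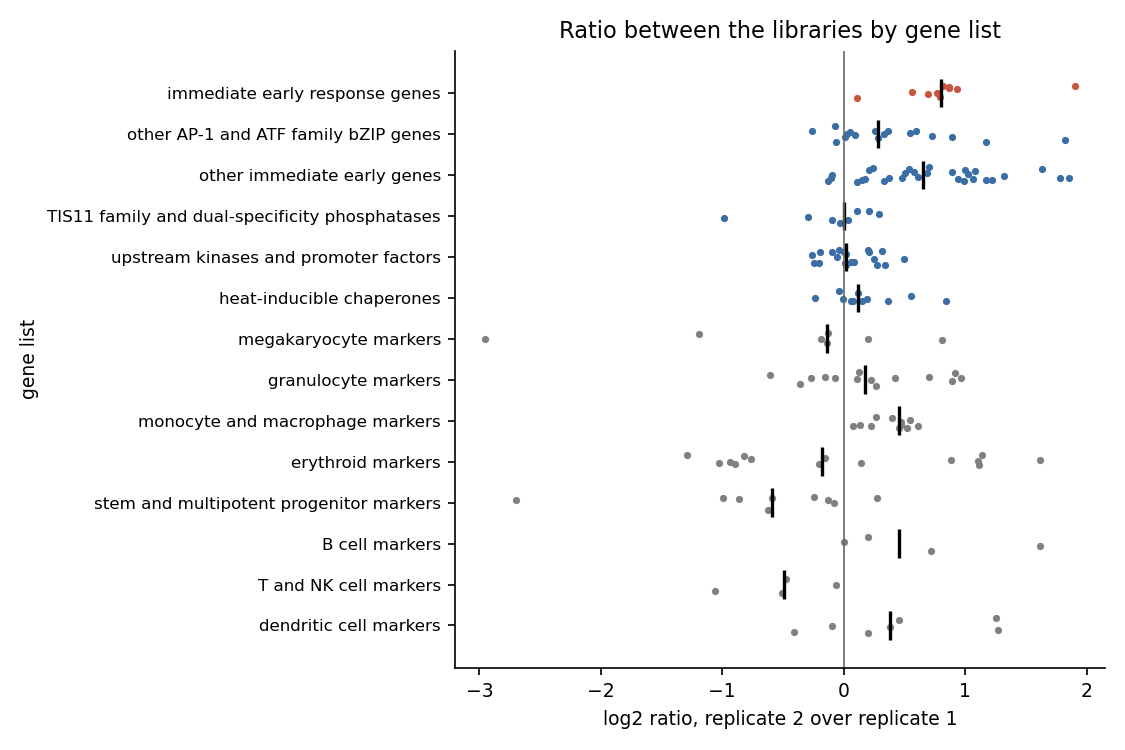
Log2 ratio of replicate 2 over replicate 1 for each gene past the filter, by list, with the list median as a black bar. The immediate early genes are in red, 5 related lists in blue and marker lists of cell types in grey. The medians are 0.80 for the set, 0.65 for the other immediate early genes and 0.02 for upstream kinases and factors, while those of the marker lists run from -0.59 to 0.46.

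Markers of several cell types also differed between the libraries, and their part in the ratios of the immediate early genes was not tested. The 13 megakaryocyte markers summed to 11.5 and 7.08 TPM in replicates 1 and 2. Only Itga2b and Vwf reached 1 TPM in both, and Gp6 and Tubb1 had 0 counts in both (a limit of 0.0512 TPM), so the markers of the labelled cell type were mostly low. Granulocyte markers summed to 16229 and 17127 TPM, with 4 of 14 higher in replicate 2 by 1.5-fold or more and 1 lower. By that fold 6.99% of all genes past the filter were higher and 10.9% lower. Monocyte and macrophage markers summed to 3248 and 3784 TPM, and all 11 that passed the filter had a value above 0 on the log2 scale (median 0.46), 1 of them past 1.5-fold. Dendritic cell markers summed to 50.6 and 71.5 TPM, with 2 of 7 higher by 1.5-fold or more.

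Markers of earlier and erythroid cells had lower sums in replicate 2. Stem and multipotent progenitor markers summed to 273.3 and 258.5 TPM, with 5 of 9 lower in replicate 2 by 1.5-fold or more and none higher. Of all genes past the filter, 10.9% were lower by that fold, and of those with a mean of 1 TPM or more, 6.1%. The shares higher by that fold were 6.99% and 4.26%. Erythroid markers summed to 752.0 and 447.2 TPM, with 6 of 14 lower and 5 higher. Car1, named after its value was seen, held the largest part of these sums, at 511.9 and 242.3 TPM. The 5 higher were Hba-a1, Hba-a2, Hbb-bs, Hbb-bt and Slc4a1, likewise named after their values were seen. B cell markers summed to 131.5 and 146.5 TPM (2 of 4 higher), and Ms4a1 and Pax5 were among those with 0 counts in both (a limit of 0.0629 TPM). T and NK cell markers summed to 353.4 and 326.8 TPM (1 of 4 lower), of which Nkg7 alone, named after its value was seen, made up 351.2 and 325.8 TPM, and Cd3e and Cd3g had 0 counts in both (a limit of 0.118 TPM).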

How the data were processed

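Total RNA-seq of 2 libraries was analysed from the deposited gene and transcript tables, made on mm10 with GENCODE M4 as the deposited file list states. Which aligner, quantifier version and strand setting were used was not given in the sources used here. The deposited gene and transcript expected counts are read estimates, and reads shared by several features are split between them. TPM as given by the authors has a fixed total over all rows, so Gm42418 (23.4% and 20.8% of counts) and mitochondrial RNA (26.8% and 28.8%) lower the TPM of other genes. The deposited score columns are credibility bounds of the posterior mean TPM, of unstated level. The deposited percent columns give each transcript's part of its gene's TPM. Effective lengths, in bases, were used as deposited.

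Symbols, positions and transcript classes came from GENCODE M21 on GRCm38, which matched 42462 of 43346 rows (98.0%), and promoters from RefSeq on GRCm38.p6. Counts of nuclear Ensembl genes were rounded, filtered with filterByExpr and scaled with TMM in edgeR 4.0.16 (R 4.3.3), with a prior count of 2. The code for the ratios was checked on simulated counts that differ by counting error alone apart from a set fold, which is no test of the ratios between these libraries. DESeq2 1.42.0 size factors, other scalings, prior counts, filters and thresholds were tried as alternatives. A count of 0 was taken to allow 3 counts, and intervals and limits cover counting error only.

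With 1 group of 2 libraries there was no test between conditions, and p-values are not given. The 10 genes and all lists were chosen with earlier results of these data known. Named were the 10 genes and, of each related list, the 3 highest by mean TPM and those of 10 TPM or more past 1.5-fold. Others are said to be named for another reason. Some genes that these rules would name are not reported here. Of 194 list genes, 1 had no match (Azu1) and 4 were matched through RefSeq synonyms.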

Additional observations from a re-analysis of the deposited data

How the results depend on the processing

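The median log2 ratio of the 10 genes, 0.80, ran from 0.76 to 0.82 over DESeq2 size factors, total count and upper quartile scaling, deposited and posterior mean TPM, other prior counts and no filter. The count of 8 genes past 1.5-fold was the same under those scalings, a prior count of 10 and no filter, and was 1 with a fold of 2. The median level, 17.9 TPM, was 44.2 TPM when TPM was rescaled over nuclear protein-coding genes, and 15.74 to 19.97 TPM without 1 of the replicates. Among values of single genes under alternatives, 59 stayed within the spread between the libraries or their counting interval and 5 moved, none with a change of sign. Those that moved were the log2 ratios of Fos and Dusp1 from deposited and posterior mean TPM, and the coding share of Atf3. By posterior mean TPM that share averaged 88.9%. No paired analysis was possible because the labels give 1 group. Atf3, with 100 and 343 counts, has the least depth of the set.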
